A study of Mus musculus with 3 samples.

Results

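The 31 genes described here carry out Fanconi crosslink repair and homologous recombination, out of 21887 protein-coding genes on the autosomes, X and Y. They were chosen by name, from knowledge of the pathway, at a time when earlier results of these libraries were known. All 31 matched an entry of RefSeq's gene table by symbol (GRCm38.p6, the same coordinates as mm10). They were divided into 11 genes of the Fanconi core complex and its ubiquitin-conjugating enzyme, 6 Fanconi downstream genes and 14 recombination genes.

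The data were peak lists of 3 CUT&Tag libraries, all of a single group, from bone marrow LSK cells (lineage-negative, Sca-1-positive, Kit-positive), a sorted fraction containing the blood stem cells along with multipotent progenitors. In CUT&Tag an antibody brings a transposase to a chromatin protein, and the DNA nearby is tagged and sequenced. Here the protein was Bcl11a, a zinc finger repressor, with a Flag epitope placed at its N-terminus in knock-in mice, as the series design states, whereas the genotype of every sample is labelled wildtype. Age, sex and number of mice are not given, nothing says that the libraries came from separate animals, and no library without the tag was analysed, so signal from open chromatin tagged without Bcl11a cannot be told apart from binding. As the libraries were made from many cells, a site tagged in few cells and a site tagged weakly in all cells cannot be told apart either.

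Library 1 held 38731 peaks, library 2 held 36459 and library 3 held 43462, with median summit pileups of 14, 18 and 20 fragments. The lowest pileup that was called over the library's own background was 6, 7 and 8 fragments, so a weaker signal was not detectable. As a check of the cell label, marker genes were examined for a peak of all libraries at an end. Such a peak stood at 6 of 7 stem and progenitor markers and 0 of 9 markers of other marrow cells. The share of all protein-coding genes was 45.2%. Ly6a, which encodes Sca-1, had a peak of 1 library, as did Cxcl12 and Cdh5 among the markers of other cells. Peaks do not measure expression, and the part of promoter CpG content in these marker counts was not tested.

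An interstrand crosslink ties the strands of DNA together and stops the replication fork. The Fanconi core complex is a ubiquitin ligase that marks the pair of FANCD2 and FANCI at such a fork, downstream nucleases then cut the crosslink loose, and homologous recombination restores the broken strand from its sister. Inherited loss of many of the Fanconi genes causes Fanconi anaemia, in which blood stem cells are lost and the marrow fails. Carriers of mutations in some recombination genes are prone to breast and ovarian cancer.

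An end of 24 of the 31 genes (77.4%) was occupied, meaning that a reproducible region, one where overlapping peaks of all 3 libraries joined, reached to within 1 kb of either annotated outer end of the gene. Among all protein-coding genes the share was 45.2%. By class, 8 of 11 core genes (72.7%), 5 of 6 downstream genes (83.3%) and 11 of 14 recombination genes (78.6%) were occupied. A peak of any library stood at an end of 29 of the 31 genes, where the share of all protein-coding genes was 59.2%. Libraries 1, 2 and 3 taken singly had a peak at an end of 87.1%, 80.6% and 90.3% of the genes, against 50.6%, 52.8% and 54.2% of all protein-coding genes. With a single group there was no contrast between conditions to test, and these shares are descriptions. Among the 10000 strongest peaks of each library the count fell to 10 members (32.3%, beside 20.6% of all protein-coding genes), which were Fanca, Fance, Fancm, Slx4, Brca1, Palb2, Rad51c, Rad51d, Xrcc3 and Blm. When peaks had to overlap by 50% of each other's length, the core count fell to 5 of 11 (45.5%), and the share of all protein-coding genes fell to 34.0%.

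**Figure D1:**
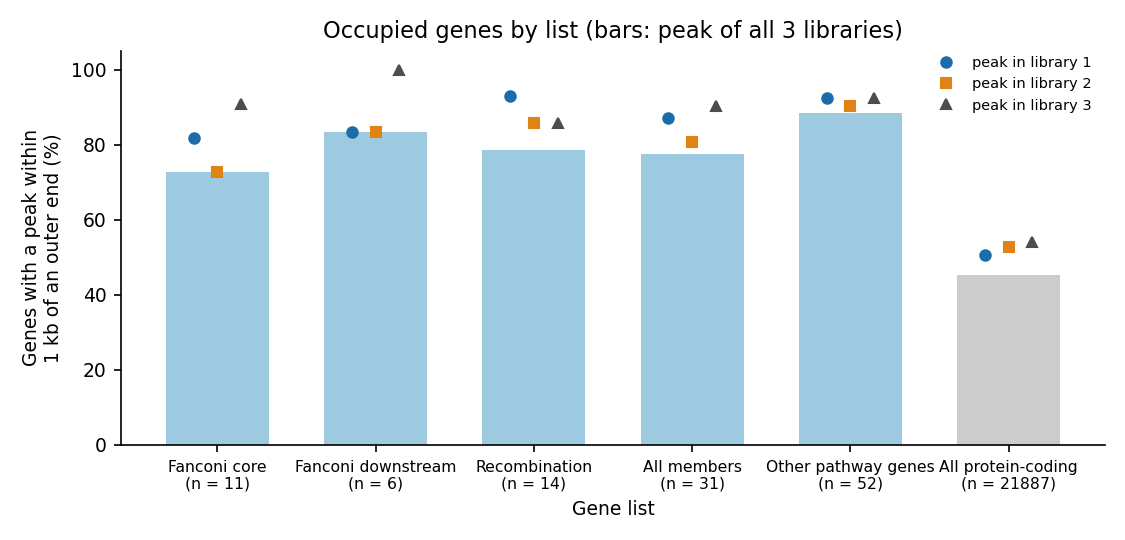
Share of genes (vertical axis, percent) with a peak within 1 kb of an outer end, for each list on the horizontal axis; bars count peaks of all 3 libraries and symbols count peaks of a single library. All lists of the pathway stand above the bar of all protein-coding genes at 45.2%, and the core, downstream and recombination bars lie between 72.7% and 83.3%.

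The signal at the occupied ends was of ordinary strength. Fold enrichment, the authors' ratio of the summit pileup to the local background of the peak caller, had a median of 7.37 over the 24 occupied members and 7.41 over all 9902 occupied protein-coding genes, and 12 of the 24 lay above the latter. The range ran from 5.26 at Faap100 to 14.96 at Fancm. On the log2 scale the median was 2.64 for core genes, 2.84 for downstream genes, 2.97 for recombination genes and 2.87 for all occupied genes. Per library the members had medians of 3.01, 2.94 and 2.78 on that scale, against 2.88, 2.94 and 2.84 for all occupied genes. Measured as summit pileup over the library background, the members' median was 3.36 on the log2 scale, below the 3.69 of all occupied genes, and as the log2 of the −log10 q it was 3.48 against 4.05. By these measures the members' ends were somewhat weaker than those of occupied genes in general.

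**Figure D2:**
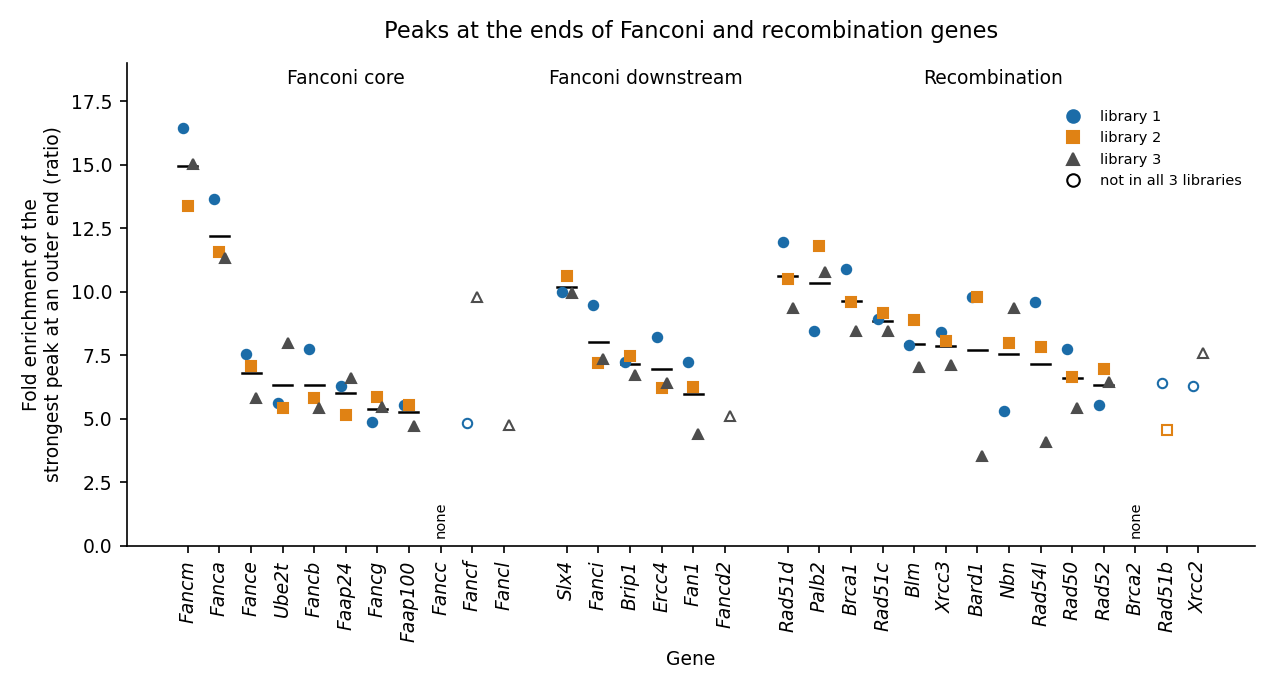
Fold enrichment (vertical axis, ratio) of the strongest end region of each gene, with a symbol per library, a bar at the mean of the 3 libraries, and open symbols where not all libraries had a peak. Fancm and Fanca stand highest, library 3 falls well below the others at Bard1 and Rad54l, and Fancc and Brca2 have no peak at an outer end.

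Core genes were led by Fancm, whose product is a DNA translocase that anchors the complex to DNA. Its lower-coordinate end (chromosome 12, region 65073459 to 65074218, GRCm38) had fold enrichments of 16.5, 13.4 and 15.03 in libraries 1, 2 and 3, a mean of 14.96 ± 1.5 (SD, n = 3), where 59, 68 and 89 fragments piled up. All libraries were high, and the mean exceeded that of 98.6% of occupied genes. Faap24, which encodes the partner of FANCM on DNA, had 6.01 ± 0.75 (SD, n = 3), so the partners differed by more than the spread between libraries.

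Fanca, the gene most often mutated in Fanconi anaemia, had 13.6, 11.6 and 11.3 at its start on chromosome 8 (region 123318250 to 123318933), a mean of 12.2 ± 1.3 (SD, n = 3). Pileups were 60, 59 and 81 fragments, and the summits lay within 45 bp of each other, at 0, 45 and 43 bp after the annotated start. Fancg, whose product binds FANCA directly, was among the weakest, with 4.86, 5.88 and 5.45, a mean of 5.39 ± 0.51 (SD, n = 3) and summits scattered over 579 bp. The libraries of Fanca all lay above those of Fancg.

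The bases just before the annotated start of Fanca, the strongest member whose region covered its start, and of Faap100, the weakest, show what lay beneath high and low signal. They come from RefSeq (GRCm38.p6, minus strand, chr8:123318577-123318826 and chr11:120378747-120378996), run 5′ to 3′ and end at the base before the start, with matches to the motifs given further on in capitals.
Fanca: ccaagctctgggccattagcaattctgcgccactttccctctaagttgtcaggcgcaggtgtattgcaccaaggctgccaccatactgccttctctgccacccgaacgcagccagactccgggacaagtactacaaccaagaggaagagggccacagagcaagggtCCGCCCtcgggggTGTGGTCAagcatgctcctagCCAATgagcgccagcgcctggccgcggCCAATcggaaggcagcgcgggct
Faap100: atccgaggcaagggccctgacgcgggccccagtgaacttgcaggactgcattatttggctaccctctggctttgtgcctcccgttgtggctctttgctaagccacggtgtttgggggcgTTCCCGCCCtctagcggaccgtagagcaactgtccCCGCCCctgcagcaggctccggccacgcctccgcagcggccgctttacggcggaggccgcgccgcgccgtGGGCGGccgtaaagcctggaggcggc
In Fanca the capitals hold 2 CCAAT boxes close to the start, a CCGCCC, and a stretch where a RUNX match (TGTGGT) and a match to the BCL11A motif (TGACCA, read on the other strand) overlap. In Faap100 they hold an E2F match overlapping a CCGCCC, and 2 other GC boxes.

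The catalytic module of the core complex holds FANCB, FAAP100 and the ubiquitin ligase FANCL. Fancb, on chromosome X, had 7.74, 5.82 and 5.43 from 13 to 15 fragments in each library, a mean of 6.33 ± 1.2 (SD, n = 3). Faap100 had a reproducible region at each end, with 5.26 ± 0.49 at the start and 4.47 ± 0.61 (SD, n = 3) at the other end. Fancl was not occupied: library 3 had a peak of 13 fragments and a fold enrichment of 4.75 just inside its start, and libraries 1 and 2 had none. Ube2t, the conjugating enzyme that works with FANCL, was occupied at 5.62, 5.43 and 7.98, a mean of 6.35 ± 1.4 (SD, n = 3). Of these 4 genes Fancl alone lacked a reproducible region, and its peak of 13 fragments compares with a lowest called pileup of 8 in library 3.

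The substrate-binding module of FANCC, FANCE and FANCF had a different outcome for each gene. Fance had 6.82 ± 0.88 (SD, n = 3) at its start. Fancf, a gene of 1691 bp, had a region at its start in libraries 1 and 3, with 4.84 (9 fragments) and 9.79 (35 fragments), and no peak in library 2. Fancc had no peak of any library at its outer ends, but the start given for it in the RefSeq promoter table lies deep inside those ends, and there a reproducible region (chromosome 13, 63430638 to 63432007) had 11.9, 10.8 and 10.7, a mean of 11.1 ± 0.64 (SD, n = 3). Its pileups of 45, 50 and 72 fragments were close to those of Fanca, and its summits lay 402, 415 and 412 bp after that start. Fancc thus counted as unoccupied by its outer ends while its annotated start carried 1 of the stronger signals in the pathway. The bases before that start (chr13:63431746-63431995, minus strand) hold 3 RUNX matches and a CCAAT box in capitals.
Fancc: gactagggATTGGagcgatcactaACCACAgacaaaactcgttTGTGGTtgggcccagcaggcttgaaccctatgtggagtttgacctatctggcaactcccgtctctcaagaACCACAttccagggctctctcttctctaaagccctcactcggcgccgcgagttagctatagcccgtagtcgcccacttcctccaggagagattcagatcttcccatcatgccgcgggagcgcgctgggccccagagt

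Downstream of the core complex, Fanci and Fancd2 encode the pair that is ubiquitinated. Fanci had 9.50, 7.19 and 7.35 at its start, a mean of 8.01 ± 1.3 (SD, n = 3). Fancd2 was not occupied: only library 3 had a peak at its lower-coordinate end, of 14 fragments and a fold enrichment of 5.09. The members of the pair therefore differed in whether libraries 1 and 2 had a peak within 1 kb of an outer end.

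The nuclease genes among the members were occupied. Slx4, the scaffold that holds the nucleases, was the strongest downstream gene, with 9.98, 10.6 and 9.94, a mean of 10.2 ± 0.38 (SD, n = 3). Its 3 summits fell within 16 bp of each other near the outer end, over 2 kb before the start given in the promoter table. Ercc4, which encodes the XPF nuclease, had 6.95 ± 1.1 and Fan1, another crosslink nuclease, 5.97 ± 1.4 (SD, n = 3). Fan1 had 7.25 and 6.23 in libraries 1 and 2 and was lowest in library 3, at 4.41 from 12 fragments. Brip1, which encodes a helicase bound to BRCA1, had 7.25, 7.48 and 6.74, a mean of 7.16 ± 0.38 (SD, n = 3).

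Among recombination genes, those of the BRCA1, PALB2 and BRCA2 chain differed widely. Brca1 had 10.9, 9.60 and 8.46, a mean of 9.66 ± 1.2 (SD, n = 3), and 49, 57 and 57 fragments at the summit. Palb2, whose product links BRCA1 to BRCA2, had 8.45, 11.8 and 10.8, a mean of 10.3 ± 1.7 (SD, n = 3). Brca2, a tumour suppressor gene of strand exchange, lacked a peak at both ends in every library, and no reproducible region lay within 20 kb or at its annotated start. Brca1 and Palb2 were high in all libraries, whereas any signal at Brca2 was under the limit of detection in all of them.

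The bases before the starts of Brca1, Palb2 and Brca2 set these side by side (chr11:101551956-101552205 and chr7:122132947-122133196 on the minus strand, chr5:150522371-150522620 on the plus strand).
Brca1: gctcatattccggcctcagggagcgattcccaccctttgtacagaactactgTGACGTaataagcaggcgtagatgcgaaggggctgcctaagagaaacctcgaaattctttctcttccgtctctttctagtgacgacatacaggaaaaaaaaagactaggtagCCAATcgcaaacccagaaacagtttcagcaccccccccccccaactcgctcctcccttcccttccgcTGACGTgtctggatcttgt
Palb2: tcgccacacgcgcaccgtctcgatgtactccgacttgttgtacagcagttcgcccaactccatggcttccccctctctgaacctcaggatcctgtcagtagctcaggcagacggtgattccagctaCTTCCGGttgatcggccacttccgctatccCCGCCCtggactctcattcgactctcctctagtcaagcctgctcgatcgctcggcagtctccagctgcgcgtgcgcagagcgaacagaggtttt
Brca2: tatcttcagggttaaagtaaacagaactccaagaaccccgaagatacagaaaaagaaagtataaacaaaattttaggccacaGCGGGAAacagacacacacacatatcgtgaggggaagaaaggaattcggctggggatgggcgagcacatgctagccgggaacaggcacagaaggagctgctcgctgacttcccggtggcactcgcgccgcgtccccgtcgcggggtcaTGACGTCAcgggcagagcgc
The 300 bp window of Brca2, which also takes in the 50 bases after the start, held 25 CpG, as many as that of Palb2, with an E2F match and a palindromic TGACGTCA, which is 2 overlapping CREB/ATF matches. Brca1 held 19 CpG in that window, and its capitals mark 2 separate CREB/ATF matches and a CCAAT box. The summits at Brca1 lay 802 bp before its start in all libraries, outside the bases shown. In Palb2 they mark an ETS match and a CCGCCC.

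Bard1, which encodes the partner of BRCA1 in its ubiquitin ligase, had 9.79, 9.78 and 3.53 at its start, a mean of 7.70 ± 3.6 (SD, n = 3). Library 3 had 11 fragments there, where libraries 1 and 2 had 28 and 32. Rad54l, which encodes a translocase of homologous recombination, was also lowest in library 3, with 9.60, 7.85 and 4.07 and pileups of 20, 20 and 11 fragments. Nbn was lowest in library 1, with 5.32, 7.999 and 9.35 and pileups of 10, 24 and 31 fragments. The coefficients of variation of Bard1, Rad54l and Nbn were 46.9%, 39.4% and 27.1%, against a median of 12.6% over the occupied members and 12.9% over all occupied genes. Nbn encodes a subunit of the complex that first binds a broken end, and Rad50, its partner in that complex, had 6.61 ± 1.2 (SD, n = 3) from 15 fragments in each library.

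Rad51b, Rad51c, Rad51d, Xrcc2 and Xrcc3 encode related proteins that assist strand exchange. Of these 5, 3 were occupied, beside 45.2% of all protein-coding genes, and so small a count cannot be told from that share. Rad51d was the strongest, with 11.98, 10.5 and 9.37 at its lower-coordinate end, a mean of 10.6 ± 1.3 (SD, n = 3), and 6.70 ± 0.97 (SD, n = 3) at the other. The stronger region lay closer to the end of Rffl, its neighbour, than to Rad51d in all libraries. Rad51c had 8.93, 9.16 and 8.46, a mean of 8.85 ± 0.35 (SD, n = 3), and Xrcc3 had 7.88 ± 0.67 (SD, n = 3). Xrcc2 had a peak in libraries 1 and 3 (6.29 and 7.57, with 12 and 24 fragments), and none in library 2. Rad51b had a region in libraries 1 and 2 (6.40 and 4.57, with 13 and 10 fragments), which lay before its start near the end of Zfyve26. Xrcc2 and Rad51b thus each missed a peak in a single library.

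Blm, the helicase gene that undoes recombination intermediates, was occupied at each end, with 7.93 ± 0.93 at its start and 4.33 ± 0.61 (SD, n = 3) at the other end. Rad52, a strand annealing gene, had 6.33 ± 0.72 (SD, n = 3). Faap100, Rad51d and Blm were the 3 members with a reproducible region at both ends. The share of all protein-coding genes with both ends occupied was not computed, so this count has nothing to be set beside. Over the 24 occupied members, library 1 had the highest fold enrichment in 14 (58.3%), against 35.0% of all occupied genes. Library 3 had the highest pileup in 16 of the members, and its median pileup over all peaks was also the highest, at 20 fragments against 14 and 18. For highest pileup, the share over all occupied genes was not computed. Across these 24 genes, which share each library's depth and background, fold enrichments correlated with a Spearman's rho of 0.78 for libraries 1 and 2, 0.44 for 1 and 3 and 0.63 for 2 and 3. Across all occupied genes it was 0.82, 0.78 and 0.81.

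Most occupied members had a region near their annotated start. A start was listed for 26 members, and the other 5 (Fancd2, Rad51d, Xrcc2, Rad50 and Nbn) were described by coordinates alone. A reproducible region lay within 1 kb of the annotated start in 20 of the 26 (76.9%), where the share of all protein-coding genes with a listed start was 46.9%. Fancc is counted by its start and not by its outer ends, and Fancm and Slx4 the reverse. Of the 21 occupied members with a listed start, 12 had the summits of all libraries within 250 bp of it. The typical summit lay 120 bp from the start (median of the per-gene medians). Summits of a gene moved by a median of 162 bp between libraries, by under 50 bp in 4 genes and by over 250 bp in 5.

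**Figure D3:**
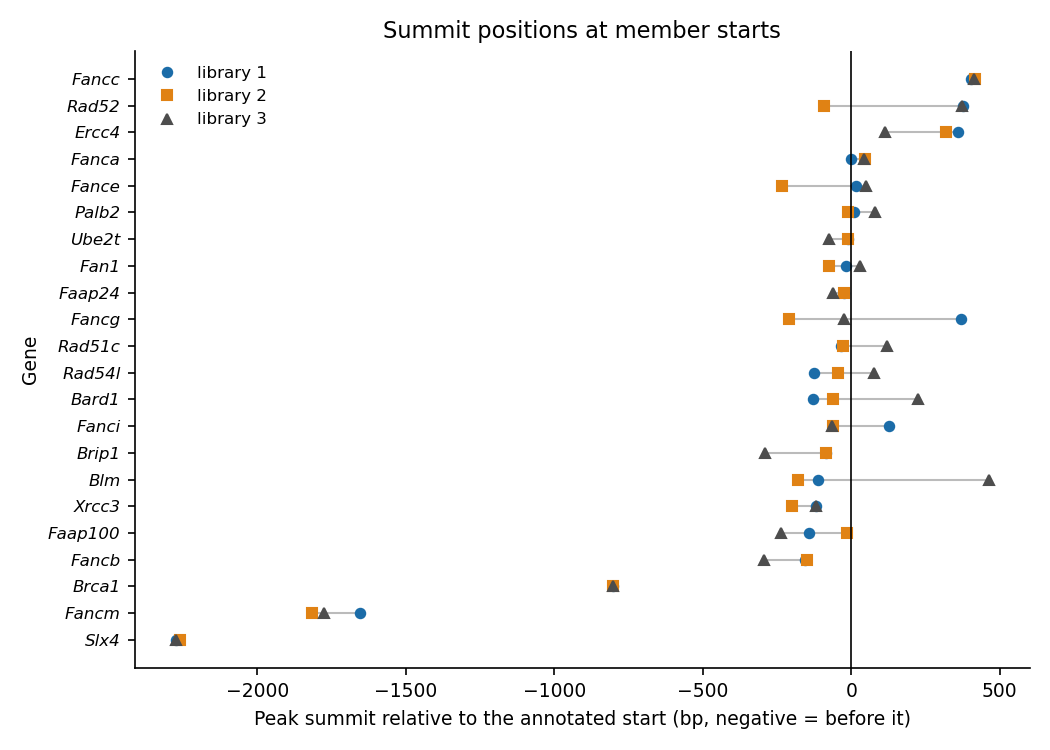
Position of the peak summit relative to the annotated start (horizontal axis, bp, negative before the start) for each gene (vertical axis), with a symbol per library and a grey line over their range. Most summits fall within 250 bp of the start, those of Brca1 coincide 802 bp before it, and those of Fancm and Slx4 lie over 1.5 kb before the start of the table.

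Many of these ends were shared with a neighbouring gene. At 12 of the 24 occupied members (50%) the strongest region also came within 1 kb of an end of another gene, where the share among all occupied genes was 41.3%. The protein-coding neighbours were Mospd2 (Fancb), Fkbp3 (Fancm), Cep89 (Faap24), Nploc4 (Faap100), Rlbp1 (Fanci), Nbr1 (Brca1), Dctn5 (Palb2), Tex14 (Rad51c), Rffl (Rad51d) and Zfyve21 (Xrcc3). The noncoding ones were Brip1os (Brip1) and 2510003B16Rik (Rad54l). The region at such an end belongs to both genes by position.

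Brca1 and Nbr1, an autophagy receptor gene, lie back to back with 152 bp between their ends. The summit fell on the same base in all libraries, 802 bp from the start of Brca1 and 650 bp from the end of Nbr1, so it lay on the Nbr1 side. At Fancm and Fkbp3, whose ends are 172 bp apart, the summits also lay closer to the neighbour in all libraries, at 12, 152 and 109 bp from Fkbp3 and 160, 324 and 281 bp from Fancm. The opposite held for Palb2, where the summits were 42, 22 and 115 bp from its end and 103, 83 and 176 bp from that of Dctn5. The summits at Fancm and Brca1 thus lay on the neighbour's side of the shared end.

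CpG content varied with occupancy across the genome. Among protein-coding genes with a promoter window (300 bp, 250 before the start and 50 after), 4.06% of the fifth with 0 to 3 CpG had a reproducible region at the start, 20.96% of that with 4 to 9, 58.2% with 10 to 19, 76.6% with 20 to 28 and 79.8% with 29 to 67. The members' windows held a median of 23 CpG, against 15 for all genes and 23 for all genes with an occupied start. Fancl had the fewest, with 3, and Slx4 had 4 at the start of the table, and neither start was occupied. Of the members with 10 to 19, 20 to 28 and 29 to 67 CpG, 8 of 9, 9 of 12 and 3 of 3 had an occupied start. All genes, weighted to the members' spread over these groups, would have 65.7% of starts occupied, beside 76.9% of the members and 46.9% of all genes unweighted. The part of CpG content in the members' share was not tested.

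**Figure D4:**
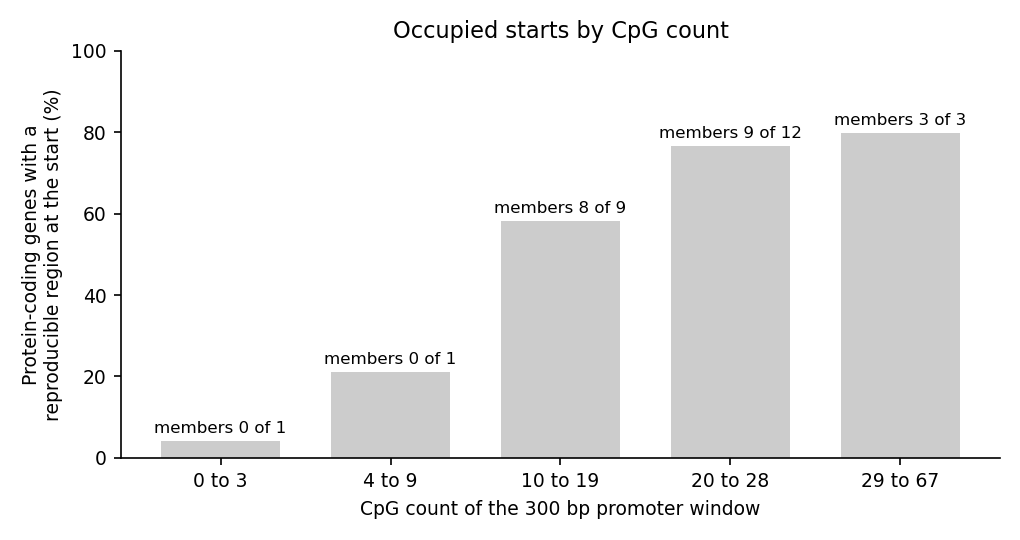
Share of protein-coding genes with a reproducible region within 1 kb of the annotated start (vertical axis, percent) by the CpG count of the 300 bp promoter window (horizontal axis, 5 groups), with the count of members written above each bar. The share rises from 4.06% to 79.8%, and 24 of the 26 members fall in the 3 richer groups.

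Motif letters were searched in the same windows, on both strands and without mismatch. The E2F motif GCGGGAA, bound by the factors that switch on S phase genes, was found in 10 of 26 members (38.5%), against 6.84% of all genes and 10.8% of genes with an occupied start. These were Fancb, Fancg, Fancm, Faap100, Ube2t, Fanci, Bard1, Brca2, Rad51c and Rad52. The NF-Y box CCAAT was found in 17 members (65.4%), against 42.3% of all genes and 43.9% of those with an occupied start, and RUNX (TGTGGT) in 7 (26.9%), against 17.2% and 14.996%. NRF1 (GCATGCGC) was found in 2 (7.69%), against 3.94% and 6.16%. For 3 motifs the members' share lay above that of all genes and below that of genes with an occupied start. The SP/KLF box GGGCGG was found in 16 members (61.5%), against 49.2% and 73.3%. ETS (CCGGAAG) was found in 5 (19.2%), against 12.9% and 21.1%, and CREB/ATF (TGACGT) in 3 (11.5%), against 9.60% and 14.4%. The GATA factor motif (AGATAA) was found in 1 (3.85%), against 11.2% and 7.10%, and YY1 (AAGATGGC) had 0 matches, against 3.57% and 5.22%. TGACCA, the motif known for BCL11A itself, was in the window of 1 member, Fanca (3.85%), against 14.3% of all genes and 13.5% of those with an occupied start. GCGGGAA and GGGCGG can overlap, as can TGTGGT and TGACCA, and a match is a description of letters.

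Farther regions were about as common near these genes as near others. Within 20 kb of an outer end and over 1 kb from both, 17 of the 31 genes (54.8%) had a reproducible region, where the share of all protein-coding genes was 49.7%. There were 32 such regions, of which 17 came within 1 kb of an end of another gene and 15 of no gene end. Core genes had 16 of them, 6 of these around Fance, and downstream and recombination genes had 6 and 10. Per gene, the mean was 1.45 in the core, 1 in the downstream and 0.71 in the recombination class. It was 1.03 over all members, beside 1.06 over all protein-coding genes.

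The strongest farther region, 17865 bp from Fan1 (chromosome 7, 64391993 to 64392989), had 15.8 ± 2.0 (SD, n = 3) and lay at the ends of Mphosph10 and Mcee. The next lay inside Rad52 (chromosome 6, 119918513 to 119919313), 3514 bp from its end, with 16.4, 14.1 and 11.99, a mean of 14.2 ± 2.2 (SD, n = 3), and was at the end of no other gene. Its pileups of 99, 112 and 124 fragments were far above the 14, 21 and 25 at the start of Rad52. Near Fancd2, which lacked a reproducible end, a region 13128 bp outside the gene had 10.5 ± 0.57 (SD, n = 3) and lay at no gene end. Farther inside long genes, beyond the 20 kb limit, Rad51b held 4 regions, the strongest with 9.69 ± 0.33 (SD, n = 3). Bard1 held a narrow region of 282 bp (chromosome 1, 71079340 to 71079621) with 16.4, 17.98 and 11.5, a mean of 15.3 ± 3.4 (SD, n = 3). Rad51b and Bard1 thus had stronger signal within the gene than at their ends.

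**Figure D5:**
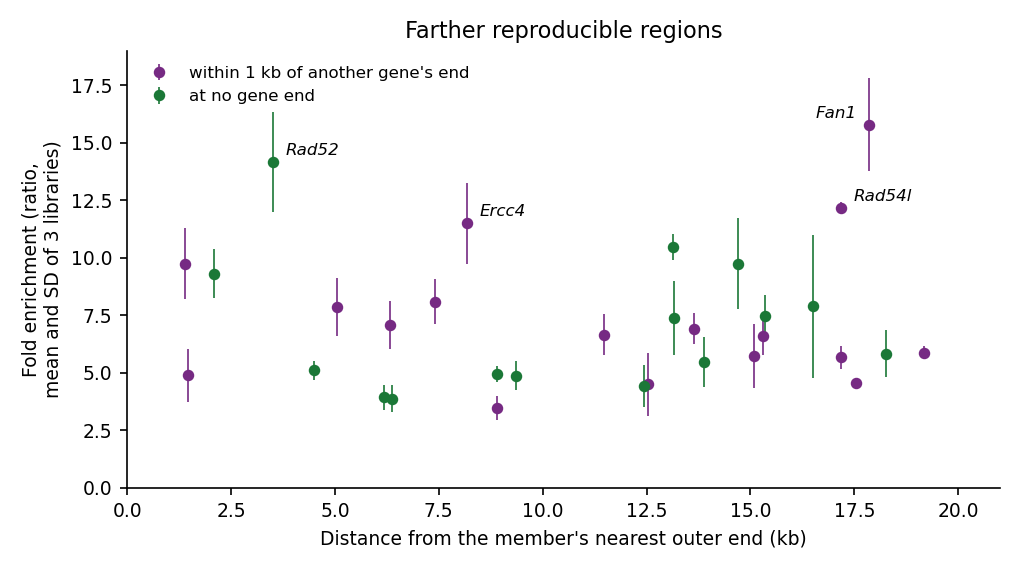
Fold enrichment (vertical axis, ratio, mean and SD of 3 libraries) of the 32 farther regions against their distance from the member's nearest outer end (horizontal axis, kb), coloured by whether the region lies at an end of another gene. The regions near Fan1 and inside Rad52 stand highest, at 15.8 and 14.2.

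The rest of the pathway, a list of 52 genes, was occupied in 46 cases (88.5%, beside 45.2% of all protein-coding genes). At 30 of these 46 (65.2%) the strongest region also came within 1 kb of an end of another gene, against 41.3% of all occupied genes. Its strongest members were Zgrf1, a helicase gene of crosslink repair, at 13.6 ± 2.3, and Sfr1, which encodes a recombination accessory protein, at 12.5 ± 1.5 (SD, n = 3). Gen1, a resolvase gene, had 12.1 ± 0.37, Brcc3, a deubiquitinase gene of a BRCA1 complex, 11.4 ± 1.4, and the helicase gene Mcm9 10.9 ± 0.93 (SD, n = 3). Mre11a, whose product works with RAD50 and NBN, had 10.3 ± 2.5 (SD, n = 3). The ends of Rbbp8, Exo1, Dna2 and Eme2 were without a peak in all libraries, of which the first 3 act in trimming broken ends. Mad2l2 and Helq had a peak of 2 libraries at an outer end. Mad2l2 did have a reproducible region at its annotated start, and Helq did not. The median fold enrichment of the occupied genes was 8.11, against 7.37 for the members.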

How the data were processed

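One peak list per library was deposited. The submitters' processing notes name Bowtie2, SAMtools and MACS2 as tools and mm10 as the build; their versions and duplicate removal are not given in the sources used here. For each peak the authors deposited a score, a fold enrichment (a ratio), −log10 p and −log10 q, and the summit position; the deposited score was not used. The lowest −log10 q was 1.30 to 1.31 (q of 0.05).

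From these, summit pileups were solved from fold enrichment and −log10 p; 100% came out whole within 0.05. Peaks overlapping by 1 bp were joined, and the strongest peak of each library gave a region its value. Gene ends came from the RefSeq gene table, and starts, strands and sequences from the RefSeq promoter table. The 26 members with a promoter entry were matched to it by gene identifier. Rad51b, Rad51c and Rad54l have 2 starts there. CpG and GC came from the window with most CpG, whereas a motif was counted if any window of a gene held it. The steps were checked on simulated data (Python 3.11.15, pandas 2.3.3).

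The members and lists were chosen with earlier results of these data known. All members were named; for the other lists, the strongest genes and, for the pathway list, those without a peak. Named after their values were seen were Mre11a, Mad2l2, Helq, the meiotic genes without a peak, the end joining genes occupied only at their start, the windows of Fancc and Brca1, and the regions inside genes. Depth is known only through pileups. SDs measure the spread between libraries, which may be technical. The alternatives were the overlap, q, number of peaks, window, outer limit, libraries, classes and measure of strength; use of annotated starts was added after seeing the data.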

Additional observations from a re-analysis of the deposited data

How the results depend on the processing

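Of the 31 genes, 24 to 26 were occupied when each library was left out in turn, and the same 24 were kept each time, as the rule then asks for fewer libraries; core genes came to 8 or 9, downstream genes to 5, recombination genes to 11 or 12, the median log2 fold enrichment to 2.79 to 2.88, farther regions to 34 to 37 and other pathway genes to 46 or 47. Fancf and Xrcc2 were gained without library 2 and Rad51b without library 3. The share of all protein-coding genes rose as well, from 45.2% to 48.8% without library 1, 46.6% without library 2 and 46.2% without library 3. With 50% reciprocal overlap 19 members were occupied (61.3%, against 34.0% of all protein-coding genes) and core genes fell to 5, losing Fancb, Fancg and Ube2t. With −log10 q of at least 5 the members came to 20 (64.5%, against 38.1%).

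The 10000 strongest peaks of each library left 10 members (32.3%, against 20.6% of all protein-coding genes), with 3 core, 1 downstream and 6 recombination genes, 12 farther regions, 20 other pathway genes and a median of 3.31. By pileup over background the median was 3.36 and by −log10 q 3.48, on other scales. An outer limit of 50 kb gave 86 farther regions. Moving Brca1, Brca2, Palb2, Rad51c and Xrcc2 to the downstream class gave 8 of 11 there and 8 of 9 in recombination. Fancl and Fancd2 each had a peak of 13 or 14 fragments in library 3 alone; the part of depth in their missing calls was not tested. No paired analysis was possible because all libraries belong to a single group.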

Other observations

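Counts for genes of other repair pathways, in lists of 8 to 21 genes and with no test, are set beside the 45.2% of all protein-coding genes occupied at an outer end and the 46.9% occupied at an annotated start. Mismatch repair genes were occupied in 7 of 8 cases (87.5%), led by Msh3, a mismatch recognition gene, at 14.6 ± 3.2 (SD, n = 3), and their median fold enrichment was 10.5. Excision repair genes were occupied in 16 of 21 cases (76.2%) with a median of 10.3, led by the glycosylase gene Mutyh at 13.8 ± 1.0 (SD, n = 3), and the other 5 all had a peak of 2 libraries at an end. End joining genes were occupied in 7 of 12 cases (58.3%) with a median of 9.12, led by Prkdc, the gene of the DNA-dependent kinase, at 15.8 ± 2.8 (SD, n = 3). By annotated start the end joining count was 8 of 9 (88.9%), since Xrcc6, Lig4, Paxx and Trp53bp1 were occupied at their start and not at an outer end. The medians of these 3 lists lie above the 7.37 of the Fanconi and recombination genes and the 7.41 of all occupied protein-coding genes.

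Genes of meiotic recombination, used in germ cells, were occupied in 6 of 10 cases (60%) by outer ends, with a median of 6.48, and in 4 of 8 cases by annotated start, close to the 46.9% of all genes. Mnd1 was the highest at 8.86 ± 1.5 (SD, n = 3), and Msh4, Hfm1 and Tex11 had no peak of any library at an end.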
